A study of Drosophila melanogaster with 2 samples.

Results

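The Odd-skipped family of Drosophila melanogaster comprises the zinc finger genes odd (odd skipped), sob (sister of odd and bowl), drm (drumstick) and bowl (brother of odd with entrails limited), and the 4 genes were taken by symbol from 18164 annotated genes. Every joint Crol peak was assigned to a gene when its summit lay from 10 kb upstream of the most distal transcription start site (TSS) to 5 kb past the gene end. These 4 windows did not overlap and held 16 of 9211 peaks. The family was set against all protein-coding genes and against a fixed list of 28 genes taken as its partners.

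Binding was measured by ChIP-seq in whole embryos aged 0 to 24 h of transgenic flies that carry Crooked legs (Crol) fused to eGFP. Crol is a zinc finger protein whose gene responds to the moulting hormone ecdysone. Chromatin was sheared by sonication to 200 to 800 bp and precipitated through the GFP tag, although a further label names crol as the antibody. There were 2 replicates of 1 group, labelled as biological, and no other condition. All cell types of the embryo and the whole of embryogenesis were mixed, so a peak carries no tissue or stage, and a control experiment named in the labels was not analysed here.

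Odd is the founding member of the family and a pair-rule transcriptional repressor in the segmenting embryo. Sob and Bowl have closely related fingers, and Bowl acts in the gut, in the epidermis and in leg joints downstream of Notch. Drm is a small family member that binds the protein Lines, which otherwise keeps Bowl from accumulating, so that Drm, Lines and Bowl form a relief-of-repression pathway.

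The genes odd, sob and drm are neighbours on chromosome arm 2L and bowl lies farther along the same arm. In dm6, odd (FBgn0002985) lies on the minus strand from 3604224 to 3606756 and sob (FBgn0004892) on the minus strand from 3578013 to 3580769. On the plus strand, drm (FBgn0024244) runs from 3539247 to 3548423 and bowl (FBgn0004893) from 3771700 to 3784121. The annotation gives 1 TSS each for odd and sob, 2 for drm and 4 for bowl. Peaks are numbered below within each gene in the direction of its transcription.

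The reference bases at 6 summits are shown because they carry the contrasts among the members. These are the strongest peak of the windows (sob peak 4), the strongest of bowl (peak 3), and a promoter peak of each gene. For bowl the promoter peak shown is peak 1, and not peak 2, which had the highest promoter signal of that gene. Each line is the plus strand of dm6 from the RefSeq genome, 50 bp to either side of the summit. Capitals mark GGGGG or GAGAG on either strand, which read CCCCC or CTCTC when the match is on the minus strand. The run of odd peak 2 leaves out 20 bases that fall in the first exon of odd.

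odd peak 2, chr2L:3606757-3606837: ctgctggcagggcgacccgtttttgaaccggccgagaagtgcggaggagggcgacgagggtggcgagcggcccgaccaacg

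sob peak 2, chr2L:3580940-3581040: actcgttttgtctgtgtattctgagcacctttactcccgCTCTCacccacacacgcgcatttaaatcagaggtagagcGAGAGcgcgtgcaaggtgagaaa

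sob peak 4, chr2L:3573248-3573348: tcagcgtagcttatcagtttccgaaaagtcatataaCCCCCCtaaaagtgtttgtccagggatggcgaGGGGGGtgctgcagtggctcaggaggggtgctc

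drm peak 2, chr2L:3540131-3540231: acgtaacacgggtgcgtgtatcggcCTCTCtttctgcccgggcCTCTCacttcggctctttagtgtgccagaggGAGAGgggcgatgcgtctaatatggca

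bowl peak 1, chr2L:3771435-3771535: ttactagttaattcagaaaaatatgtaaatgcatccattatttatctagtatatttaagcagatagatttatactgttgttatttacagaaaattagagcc

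bowl peak 3, chr2L:3773085-3773185: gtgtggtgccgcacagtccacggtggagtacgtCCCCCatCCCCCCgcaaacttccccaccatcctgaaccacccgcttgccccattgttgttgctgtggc

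Each of the 4 genes had a joint peak within 500 bp of a TSS, which held for 15.5% of 13945 protein-coding genes. For drm no summit lay in reach with either replicate's list, with the optimal list or within 250 bp, which left 3 of 4. The list of replicate 2 did hold a peak that overlaps drm peak 2, but with its own summit beyond 500 bp from a TSS of drm. The strongest promoter peak was that of odd, and bowl, sob and drm followed. Signal here is the value that the authors deposited for each peak, in units with no stated scaling, and its depth in reads is unknown. Among 2156 protein-coding genes with a promoter peak, odd ranked 319, bowl 424, sob 1180 and drm 2077 by signal. The median of those genes was 141.5, so odd and bowl lay above it and sob and drm below.

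For odd, the promoter peak (peak 2) had a signal of 385.2 in the joint list, with 221 in replicate 1 and 162 in replicate 2. Its summit lay 31 bp upstream of the only TSS, at rank 802 of 9211. The bases around it were rich in G and C (63.4%) and held none of the 4 short sequences searched. The other peaks of odd were weak. Peak 1, 5226 bp upstream of the TSS, had a joint signal of 70.0, with 29.4 and 33.2 in replicates 1 and 2, and appeared in the thresholded list of neither replicate. Peak 3, 7452 bp beyond the TSS and downstream of the gene, had 72.4, with 65.2 and 45.9. It overlapped a peak in the thresholded list of replicate 1 but none in that of replicate 2. The overlap in replicate 1 covered only the smaller part of its length, as did its overlap with the optimal list. A weaker ranked peak, 7252 bp beyond the TSS, carried the same replicate 2 value of 45.9. Odd was thus marked at its start by 1 peak that exceeded its others in both replicates.

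The window of sob, a close relative of odd, held the strongest peak of the 16. This peak 4 reached 1095 in the joint list, rank 74 of 9211, with 626 in replicate 1 and 488 in replicate 2. In each replicate it was higher than any other peak of the 4 windows. It lay in intergenic sequence 7471 bp beyond the TSS of sob, only 285 bp inside the window, and the nearest TSS was that of the non-coding RNA gene lncRNA:CR43822, 2052 bp away. The gene that this site serves was not tested.

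The promoter peak of sob (peak 2) lay 221 bp upstream of its TSS with 127.6, from 79.2 and 47.9 in replicates 1 and 2. Peak 1, 7495 bp upstream of the TSS, had 321.5, with 214 and 104.5. It lay 795 bp upstream of lncRNA:TS2, another non-coding RNA gene. Peak 3 had 69.7, with 30.8 and 38.8, and its summit was 20 bp from the TSS of CG43815, in the 5' UTR of that protein-coding gene. The peaks of sob thus stood outside its transcribed part, and 3 of the 4 lay closer to the TSS of another gene.

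In drm, the strongest peak (peak 3) was not at a TSS but in the 5' UTR part of an inner exon, 339 bp before the start codon. Its joint signal was 278.3, with 170.6 in replicate 1 and 102.2 in replicate 2. The promoter peak (peak 2) had 61.4, the lowest signal of the 16, with 33.4 and 39.0, and lay in an intron 448 bp past the second TSS. It was present in the list of replicate 2, absent from that of replicate 1, and absent from the authors' optimal list. Peak 1, 5117 bp upstream of the first TSS, had 107.3, with 62.4 and 53.1. Peak 4, downstream of the gene, had 91.9, with 62.4 and 34.3, and was absent from the list of replicate 2. In both replicates, peak 3 exceeded the other 3 peaks.

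The window of bowl, which encodes the pathway's effector, held 5 peaks, the most of the family, and 3 of them lay within 500 bp of a TSS. All 5 summits preceded the start codon, by 1153 to 8241 bp. Peaks 1 to 3 stood close together at the upstream cluster of TSSs. Peak 1, 215 bp upstream of the first TSS, had a joint signal of 217.6, with 117.9 and 97.1 in replicates 1 and 2. Peak 2, in the 5' UTR, had 310.0, with 174 and 137. Peak 3, in an intron 1109 bp past the nearest TSS, had 720.6, rank 226 of 9211, with 409 and 308. Signal rose in that order in each replicate. Peak 5 lay in the same gene 365 bp upstream of the internal TSS and had 158.5, with 102.8 and 58.5. Peak 4, in an intron, had 62.1, with 42.2 and 28.4, and overlapped no peak of the optimal list or of either replicate's thresholded list.

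**Figure D1:**
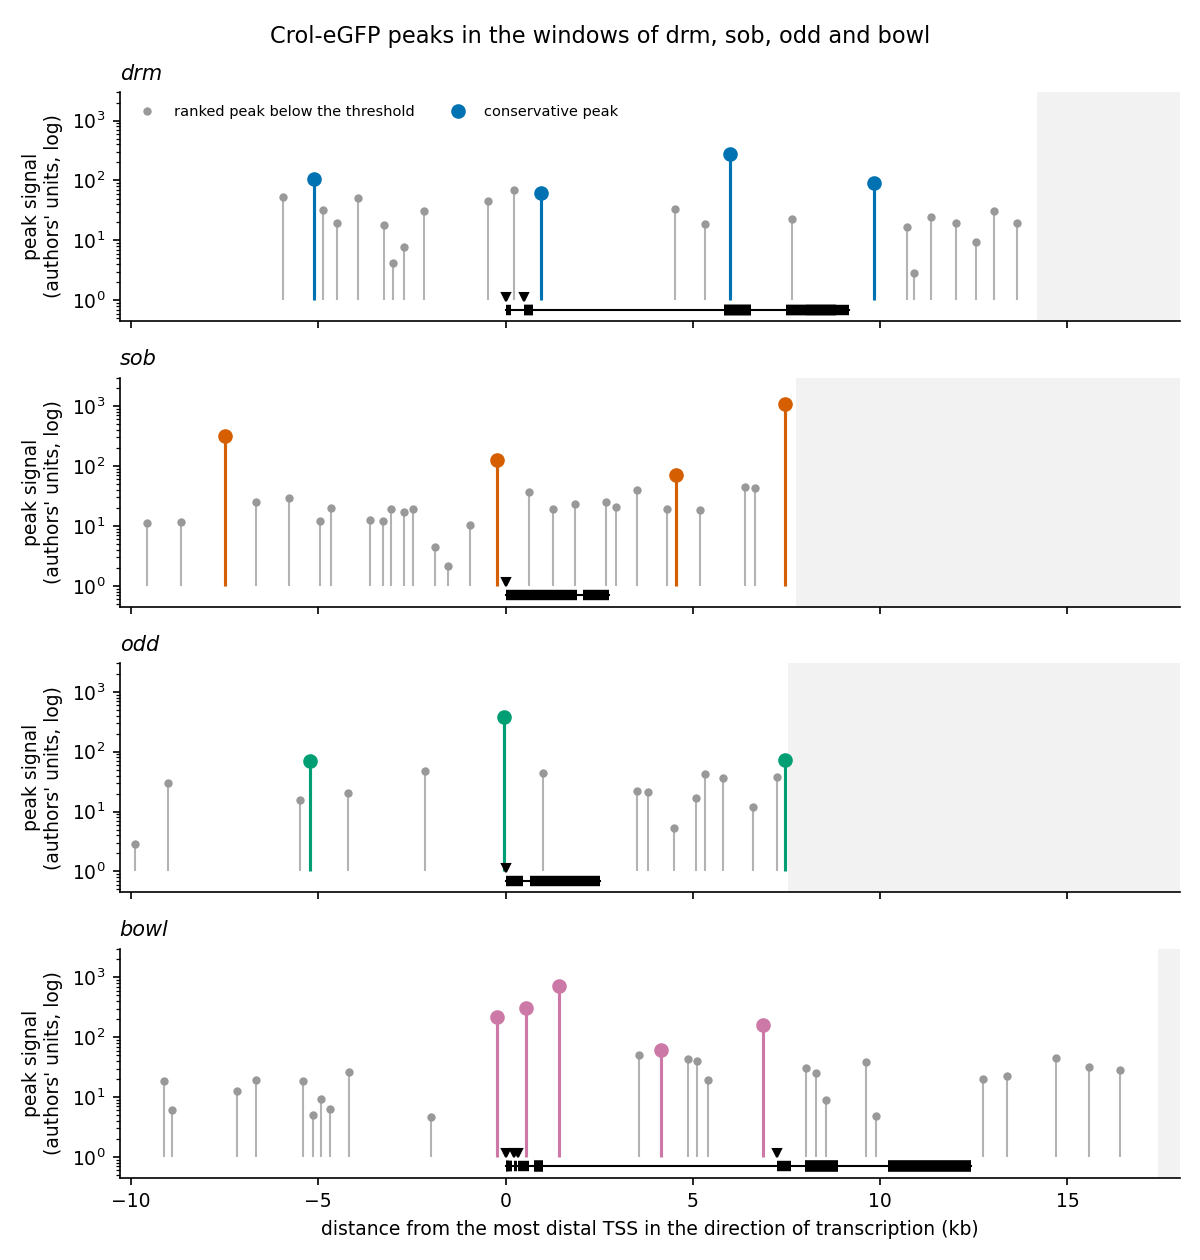
Signal of every ranked peak (authors' units, log axis) against the distance of its summit from the most distal TSS, in kb along the direction of transcription, in 4 panels for drm, sob, odd and bowl. Large coloured points are joint conservative peaks, small grey points are weaker ranked peaks, black blocks are exons, triangles are TSSs, and the shaded area lies outside the window; odd has 1 strong peak at its TSS, bowl has 3 near its upstream TSSs, and the 1095 peak of sob sits at the window edge.

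By place, 9 of the 16 summits were intergenic, 4 lay in introns of their gene, and 2 lay in the 5' UTR of their gene. The remaining summit was that in the 5' UTR of CG43815. None of the 16 lay in coding sequence. The peaks varied widely in signal, from 61.4 to 1095 with a median of 143, beside a median of 113.4 over all 9211. Of the 16, 7 were above 191, the upper quartile of the whole list. These 7 were also the peaks whose deposited width differed from the common 410 bp, which 9 of the 16 had, beside 71.6% of all joint peaks. The whole list showed the same link, with a median signal of 280.9 at other widths and 91.7 at 410 bp.

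At promoters the order of the 4 genes was the same in each replicate. The range of the odd values (221 and 162) overlapped that of the bowl values (174 and 137), so across replicates these neighbours did not differ beyond their spread. Within each replicate odd was the higher, and replicate 1 ran higher than replicate 2 at most joint peaks. The sob values (79.2 and 47.9) lay below those of bowl and above those of drm (33.4 and 39.0) without overlap. With 2 replicates no test of this order was made.

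Replicate 1 gave the higher signal at 13 of the 16 peaks, beside 74.1% of all joint peaks. The ratio of replicate 1 to replicate 2 ranged from 0.794 at sob peak 3 to 2.05 at sob peak 1, with a median of 1.35, beside 1.21 for the whole list. The 3 peaks that were higher in replicate 2 were drm peak 2, sob peak 3 and odd peak 1. All 3 were among the weak peaks, with joint signals of 61.4, 69.7 and 70.0. A weaker ranked peak beside sob peak 3 carried the same replicate 2 value (38.8), as did one beside odd peak 1 (33.2).

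**Figure D2:**
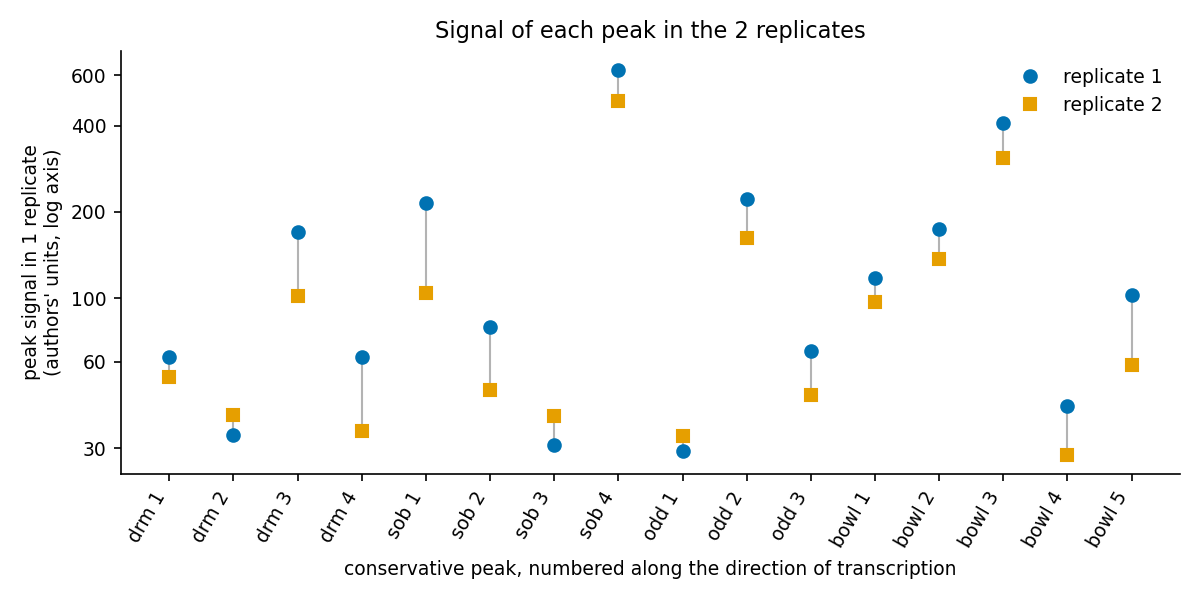
Signal of each of the 16 joint peaks in replicate 1 (circles) and replicate 2 (squares), in authors' units on a log axis, with a line joining the replicates of 1 peak. The 2 highest pairs are sob peak 4 (626 and 488) and bowl peak 3 (409 and 308), and replicate 2 is the higher at drm peak 2, sob peak 3 and odd peak 1.

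The summits called in the separate replicates stood 31 bp apart in the median, beside 24 bp for all joint peaks. The widest gap was 151 bp, at odd peak 3, where the joint window opens on a run of G. An overlap of at least 1 bp was found in the thresholded list of replicate 1 for 12 of the 16 peaks and in that of replicate 2 for 11, and 10 overlapped in both. Over all joint peaks the shares were 74.6%, 64.4% and 57.1%. The peaks found in neither were sob peak 3, odd peak 1 and bowl peak 4. The highest deposited score, 1000, was held by 12 of the 16 and by 80.9% of all joint peaks.

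In number of peaks, drm and sob had 4 each, odd 3 and bowl 5. Every member had at least 3, as did 21.2% of protein-coding genes, and the median protein-coding gene had 1. From the window lengths and the mean density of summits, 1.66 were expected for drm, 1.22 for sob, 1.21 for odd and 1.89 for bowl. An exact one-sided Poisson test, with Benjamini-Hochberg adjustment over 18164 genes, called none of the 4. Adjusted p was 0.730 for drm, 0.396 for sob, 0.763 for odd and 0.447 for bowl. Without adjustment 2 of the 4 were below 0.05, sob (p = 0.0357, Poisson exact test) and bowl (p = 0.043, Poisson exact test). At that unadjusted limit the same test passed 9.92% of all genes, and with adjustment it called 2.81% of them. Peaks cluster along the genome, so Poisson p-values are too small. A negative binomial test with 1 dispersion for all genes called 0.0% of them, with 776 genes at an unadjusted p below 0.05 and no member among those. These p-values describe the peak lists, not a spread between embryo collections.

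**Figure D3:**
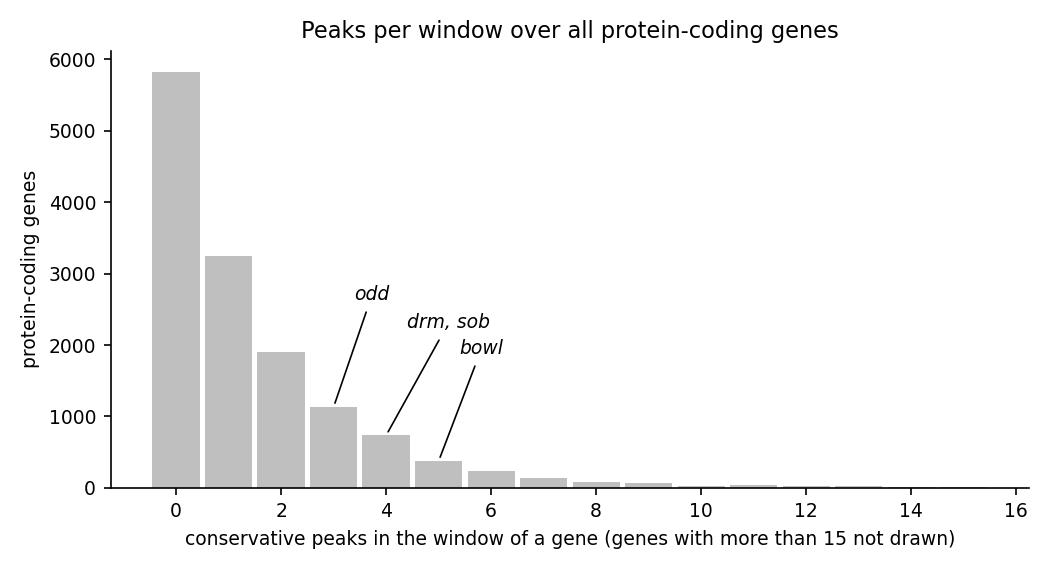
Number of protein-coding genes (vertical axis) by the number of joint peaks in their window (horizontal axis), with the members marked. Windows with 0 peaks are the most frequent class (5831 genes), and odd (3), drm and sob (4 each) and bowl (5) lie in the declining right flank.

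The short sequences differed between the peaks of the family. GGGGG on either strand, a run common at summits of the whole list, was found within 50 bp of 5 of the 16 summits and of 53.1% of all joint summits. It occurred at the strongest peaks of sob and bowl, as shown in the lines for sob peak 4 and bowl peak 3, and at drm peak 1, odd peak 3 and bowl peak 2. The strongest peaks of odd (peak 2) and drm (peak 3) did not hold it. GAGAG, the core of sites of GAGA factor, occurred at 3 of the 16 (drm peaks 2 and 3, sob peak 2) and at 25.9% of all. Matches of GGGGG and GAGAG do not overlap each other in these windows, but a longer run of G holds several matches.

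CAGGTA, the core of the motif of the early embryonic activator Zelda, was found at 0 of the 16 and at 1.88% of all joint summits. CAGTAGC, the core of the motif of the Odd family's own fingers, was found at 0 of the 16 and at 0.651% of all. Both sequences are so rare in the whole list that 0 of 16 is near the background and says nothing about these genes. A match is a description of letters and not a site. The G and C content of the 16 windows had a median of 55.4%, beside 53.5% for all. It was lowest at bowl peak 1 (23.8%), whose line above is made mostly of A and T. In the same gene it was 64.4% at peak 2, the strongest promoter peak of bowl, and 63.4% at peak 3.

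Below the threshold, the ranked list held 82 further peaks in the 4 windows, 20 for drm, 24 for sob, 14 for odd and 24 for bowl. The rank there is by the irreproducible discovery rate (IDR), which is low where the order of peaks repeats between replicates. Some of these peaks share a replicate peak, and none of the 82 was in the optimal list. Below an IDR of 0.05 there were 5 for bowl, 1 for drm and 0 for sob and odd, beside 5.59% of the 77914 weaker ranked peaks on the arms. The 5 of bowl rest on 4 separate peaks of replicate 1 and 3 of replicate 2. Of the bowl peaks with a low IDR, 4 lay in introns of the gene, with joint signals of 51.1, 43.6, 40.1 and 19.2. The other lay downstream of it, with 45.5.

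Just inside the threshold stood odd peak 1, with a score of 851, and just outside it the bowl intron peak of 19.2, with a score of 792 and an IDR of 0.0123. At drm the first TSS had only weaker peaks, 237 bp past it with a signal of 68.3 (38.1 and 19.5 in replicates 1 and 2) and 473 bp before it with 45.3. The first of these had a higher joint signal than drm peak 2 and an IDR of 0.0966. In odd, a weaker peak of 44.8 (32.5 and 20.3) lay in coding sequence 1008 bp past the TSS, with an IDR of 0.0537.

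**Figure D4:**
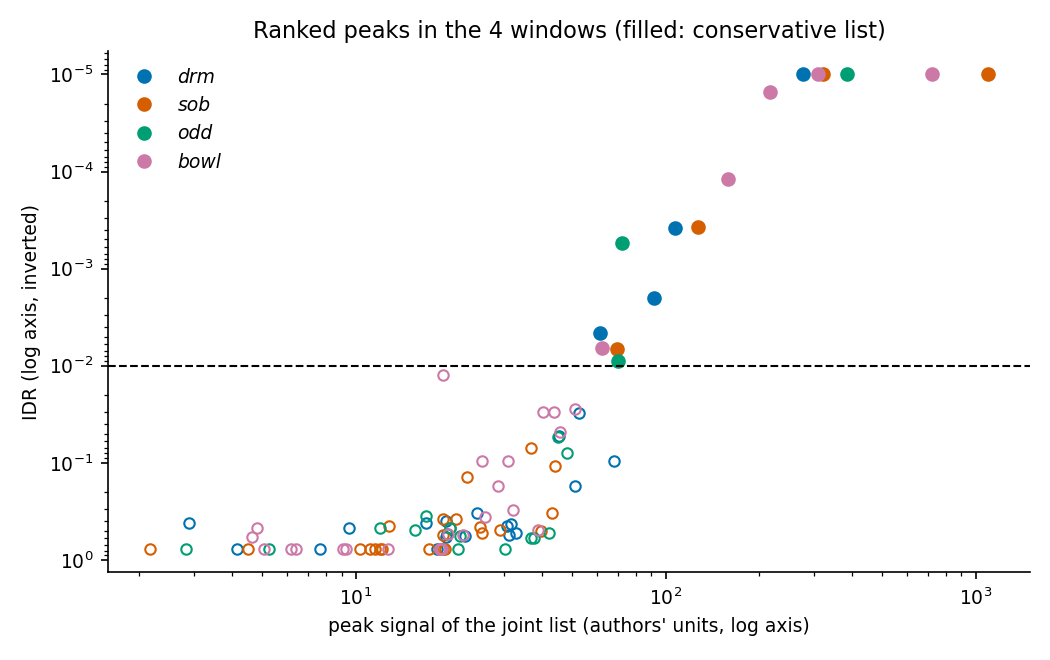
IDR (log axis, inverted) against joint signal (authors' units, log axis) for the 98 ranked peaks of the 4 windows. Filled points are the 16 joint conservative peaks, open points the 82 weaker ones, and the dashed line is the IDR that the lowest conservative score gives; the bowl peak of 19.2 lies nearest below it.

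Other genes start inside the windows, 17 in all, among them the protein-coding genes IFT57, Spindly, CG31960, CG43703, CG43707 and bark. The only one with a promoter peak was CG43815, whose peak is sob peak 3.

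Of the 28 genes listed as partners of the family, 13 (46.4%) had a promoter peak, beside 15.5% of protein-coding genes. The 28 were listed with earlier results of these data known, and the difference between these shares was not tested. Of lin (lines) and gro (groucho, a corepressor that Odd and Bowl recruit), lin had no peak in its window and gro had a promoter peak of 138.8. Among 8 pair-rule genes, 5 had a promoter peak: eve (165.0), opa (157.5), hry (143.5), slp1 (116.7) and run (60.3), while ftz, prd and slp2 had none. Of the Notch pathway genes N, Delta, Ser and fng, a promoter peak was found at fng alone (64.2), the gene of a glycosyltransferase that modifies Notch. The leg gene dac had 419.4.

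Of the signalling and segment polarity genes wg, hh, en and dpp, en had a promoter peak of 430.6 and wg one of 103.8. Among the gut genes fkh, byn, cad, hkb and tll, fkh had one of 102.1, and byn and tll had no peak in their windows. In the JAK/STAT pathway dome, the receptor, had 375.8 and upd1, a ligand, had 82.4, while hop and Stat92E had none. Only en and dac exceeded odd, and run alone was below drm. Of the partners, N alone was called by the count of peaks, with 11 against 3.60 expected (adjusted p = 0.0467, Poisson test) and an adjusted p of 1.0 by the negative binomial test. That call was lost with either replicate alone. The exact Poisson test gave an adjusted p of 0.673 for the 6 peaks of replicate 1 and 0.895 for the 5 of replicate 2. The genes with the most peaks in their windows were sbb (49), lncRNA:CR44357 (42), kirre (41), jing (40) and Hr4 (35).

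**Figure D5:**
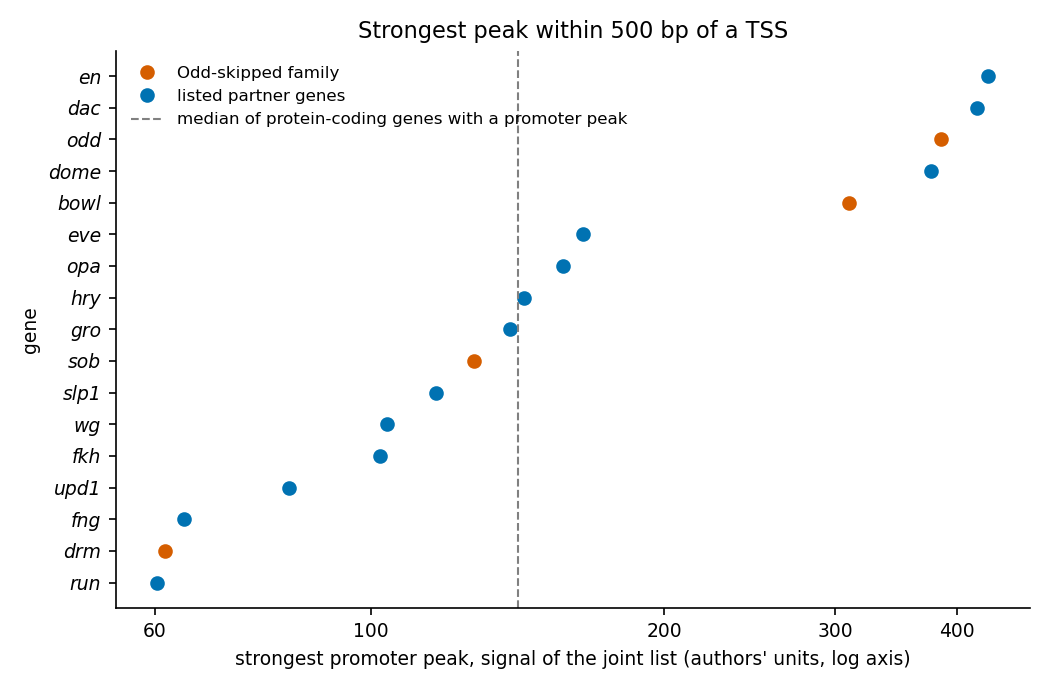
Signal of the strongest joint peak within 500 bp of a TSS (authors' units, log axis) for the 4 family genes and the 13 partner genes that have one, ordered by signal. The dashed line is the median of the 2156 protein-coding genes with a promoter peak (141.5); odd and bowl lie to its right, sob and drm to its left.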

How the data were processed

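The authors deposited peak lists on dm6, per the labels. Their signal column is a peak height with no stated scaling, and their score column is a rescaled IDR, per the file headers. The ranked list also gives the IDR as deposited −log10 values. Neither aligner nor peak caller is given in the sources used here, and depth is unknown. Replicate signals came from the ranked list, whose paired positions match replicate 1 in 77.8% and replicate 2 in 64.3% of peaks and the other replicate in 0.

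Genes came from Ensembl release 115 and bases from the RefSeq genome. The members, lists and short sequences were chosen with earlier results of these data known. Named were the 4 members with each joint peak, genes starting in their windows, partners with a promoter peak or past the count test, and the 5 genes with the most peaks. The partner genes h and Dl were matched to their current symbols hry and Delta. A planned comparison of the finger proteins was not made. The count test was tested on simulated data. Tools were Python 3.11.15, numpy 2.4.6, pandas 2.3.3, scipy 1.17.1 and matplotlib 3.10.9.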

Additional observations from a re-analysis of the deposited data

How the results depend on the processing

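No member was called by the count of peaks under any of the 10 alternatives run (other peak lists, the higher scores, peaks above the median signal, shared intervals counted once, narrower windows, a negative binomial test, protein-coding genes only), and each count stayed above its expected value. The ratio of observed to expected peaks ranged from 1.20 to 3.61 for drm, 2.90 to 4.91 for sob, 1.24 to 3.21 for odd and 1.94 to 5.04 for bowl, and the lowest adjusted p was 0.488, 0.214, 0.759 and 0.216. With 1 replicate's list alone, the counts ranged from 3 to 4 for drm, 3 to 4 for sob, 1 to 2 for odd, and 4 in both for bowl. The 4 counted in replicate 2 for drm and for sob were not the same peaks as the joint 4. Joint drm peak 4 and sob peak 3 overlapped no peak of that list. The count of genes called was 511 with the main settings, 376 with replicate 2 alone, 263 with peaks above the median signal or with protein-coding genes only, 245 and 132 with the narrower windows and 0 with the negative binomial. The call of N was lost under 9 of the 10, where its adjusted p ranged up to 1.0, and held with shared intervals counted once (adjusted p = 0.0465, exact Poisson test).

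The number of members with a promoter peak was 3 of 4 with each replicate's list, with the optimal list and with a 250 bp promoter, and 4 of 4 with 1000 bp, when 21.0% of protein-coding genes had one. The gene that lacked it was drm each time. Requiring an overlap of at least 50% of a peak's length left 11 and 10 of the 16 peaks in replicates 1 and 2. Within 100 bp of the summit, GGGGG was found at 6 of the 16 and at 64.4% of all joint summits, GAGAG at 4 and 41.0%, CAGGTA at 0 and 3.66%, and CAGTAGC at 0 and 1.47%. No paired analysis was possible because there is 1 group and so no contrast to block by replicate. With 2 replicates and no read counts, the error of a single signal cannot be given beyond its 2 values.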

Other observations

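Joint peaks also lay between the windows of the family. From the start of the drm window to the end of the odd window, 87510 bp held 16 joint peaks, 11 of them assigned to drm, sob or odd, which is 18.3 per 100 kb beside 6.38 for all of 2L. The 8454 bp between the windows of sob and odd held 4 of the others. Their joint signals were 122.1, 100.9, 106.3 and 120.8. The last stood 7806 bp beyond the TSS of odd, just outside its window, next to odd peak 3 (72.4) just inside. The deposited intervals of these neighbours overlap, and each counts among the 16. The peak outside had 52.5 in replicate 1 and 74.7 in replicate 2. Between the windows of drm and sob, 19589 bp held 1 peak, with 164.1 in the joint list and 82.9 in each replicate, 1800 bp from the TSS of lncRNA:CR44309. Between the windows of odd and bowl, 144943 bp held 12 peaks, or 8.28 per 100 kb, the strongest with 426.1.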
